A study of Mus musculus with 8 samples.

Results

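The mouse alkaline phosphatases are encoded by 4 genes, Alpl, Alppl2, Alpi and Akp3, among the 55471 genes quantified in embryonic day 4.5 blastocysts of 3 Isca2 genotypes. The family was chosen by gene symbol, because Alppl2 was all but missing from the Isca2 knockout libraries. The difference between knockout and wild type is therefore given for these genes as a description, with no test. In the embryos, 2 of the 4 genes had reads, Alppl2 and Alpl. Alppl2 had 2 and 0 counts in the knockout libraries, while Alpl had 1670 and 1917 counts in the same libraries.

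Alkaline phosphatases are zinc-dependent enzymes that sit on the outer face of the cell membrane by a glycosylphosphatidylinositol (GPI) anchor and remove phosphate from small molecules such as pyrophosphate and pyridoxal 5′-phosphate, the active form of vitamin B6. Their activity in a histochemical stain is a classical mark of pluripotent cells and primordial germ cells in the mouse. Alpl encodes the tissue-nonspecific enzyme of bone, liver and germ cells, Alppl2 the embryonic enzyme of preimplantation embryos, and Alpi and Akp3 encode intestinal enzymes.

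The G77S group held 3 libraries of embryos homozygous for a G77S substitution in Isca2 (Isca2 G77S/G77S). The KO group held 2 libraries of Isca2 -/- embryos, and the WT group held 3 libraries of wild-type embryos. Isca2 encodes a mitochondrial protein of iron-sulfur cluster assembly. Embryos came from superovulated heterozygous Isca2 +/- females mated to Isca2 +/- males and were grown in culture, per the labels' protocols. The cross behind the G77S embryos, and the number, sex and litter of the embryos in a library, are not given there. Whether the replicates were independent collections is not stated, and each p-value below measures only their spread, possibly technical.

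Summed expected counts ran between 10323965 and 13490295 in G77S libraries, between 18467418 and 21146927 in KO libraries and between 10790670 and 23842619 in WT libraries. Isca2 itself had 89.1 to 133 CPM (counts scaled to library size) in G77S, 4.84 to 6.20 CPM in KO and 86.9 to 173 CPM in WT libraries. Some libraries stood apart from the rest of their group. The first G77S library had 0.07 CPM of summed RNA from 4 Y-linked genes and the first WT library had 0.335 CPM, while the other 6 libraries had 215 to 418 CPM. The fragment length implied by the deposited effective lengths was 181 to 185 bases in G77S libraries, against 243 to 291 bases in all KO and WT libraries, so a difference in preparation cannot be told apart from the G77S genotype.

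Alppl2, Alpi and Akp3 lie within a short stretch of chromosome 1, and Alpl lies on chromosome 4. In the GRCm38 annotation Alppl2 (ENSMUSG00000026246) spans chr1:87086694-87089928 on the minus strand, Alpi (ENSMUSG00000079440) chr1:87098002-87101606 on the minus strand and Akp3 (ENSMUSG00000036500) chr1:87124973-87127912 on the plus strand. Alpl (ENSMUSG00000028766) spans chr4:137741733-137796384 on the minus strand. The promoters of the 3 clustered genes are shown because these genes are close copies of which 1 had reads in these embryos and 2 had none. Each sequence is the RefSeq window on GRCm38.p6 from 250 bases before to 50 bases after the start of transcription, read 5′ to 3′ on the gene's strand. It spans chr1:87089879-87090178 for Alppl2, chr1:87101557-87101856 for Alpi and chr1:87124704-87125003 for Akp3, and capitals mark the runs of 9 or more bases that all 3 share.
Alppl2: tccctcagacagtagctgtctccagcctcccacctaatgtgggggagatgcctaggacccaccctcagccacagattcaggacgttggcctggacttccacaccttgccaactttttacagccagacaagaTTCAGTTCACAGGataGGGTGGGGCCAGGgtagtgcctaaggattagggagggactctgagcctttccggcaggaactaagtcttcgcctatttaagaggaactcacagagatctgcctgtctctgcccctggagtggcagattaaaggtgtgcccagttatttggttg
Alpi: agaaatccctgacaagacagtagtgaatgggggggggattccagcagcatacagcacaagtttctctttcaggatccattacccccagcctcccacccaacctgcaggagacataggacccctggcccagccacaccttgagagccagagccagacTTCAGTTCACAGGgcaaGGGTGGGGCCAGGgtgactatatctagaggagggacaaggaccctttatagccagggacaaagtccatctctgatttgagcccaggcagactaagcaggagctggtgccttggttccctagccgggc
Akp3: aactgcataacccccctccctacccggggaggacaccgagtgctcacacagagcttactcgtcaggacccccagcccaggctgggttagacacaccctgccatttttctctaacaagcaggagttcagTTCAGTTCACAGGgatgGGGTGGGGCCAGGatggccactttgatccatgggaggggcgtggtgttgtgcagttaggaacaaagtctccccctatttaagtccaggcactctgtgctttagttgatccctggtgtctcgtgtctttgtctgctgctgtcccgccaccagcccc

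The shared runs were TTCAGTTCACAGG and GGGTGGGGCCAGG, of 13 bases each. They followed each other in all 3 promoters, with 3 bases between them in Alppl2 and 4 bases between them in Alpi and in Akp3. In Alppl2 they covered bases 119 to 107 and 103 to 91 before the start. In Alpi they covered bases 94 to 82 and 77 to 65, and in Akp3 bases 122 to 110 and 105 to 93. Searched on either strand, TTCAGTTCACAGG occurred in 10 of the 32544 mouse promoter windows (0.031%) and GGGTGGGGCCAGG in 16 of them (0.049%). Both counts include the windows of Alppl2, Alpi and Akp3, from which the runs were taken. Neither run was in the Alpl windows. Alpi and Akp3, which had no reads, carried the same letters as Alppl2, and the match is a description of sequence and not of binding.

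The promoter of Alpl is shown for contrast, with CpG dinucleotides in capitals. This window of its upstream start spans chr4:137796335-137796634 on the minus strand.
Alpl: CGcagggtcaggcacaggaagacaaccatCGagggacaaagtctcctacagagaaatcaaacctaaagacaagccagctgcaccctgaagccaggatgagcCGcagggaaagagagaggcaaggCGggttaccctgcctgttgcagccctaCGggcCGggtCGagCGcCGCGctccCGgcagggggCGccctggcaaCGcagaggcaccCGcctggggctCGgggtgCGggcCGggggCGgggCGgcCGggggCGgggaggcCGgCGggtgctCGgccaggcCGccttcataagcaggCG
It held 26 CpG dinucleotides and was 70.0% G or C, and 17.0% of all promoter windows held as many. The windows of Alppl2, Alpi and Akp3 held 3, 1 and 6 CpG, against a median of 7 over all windows. A window at the downstream start of Alpl, chr4:137766426-137766725, held 4 CpG.

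Because the genes of chromosome 1 are close copies, the counting could in principle have divided reads between them. Their coding sequences were 81.6% identical between Alppl2 and Alpi, 78.7% between Alppl2 and Akp3 and 65.2% between Alppl2 and Alpl. Of the 2043 words of 50 bases in the longest Alppl2 transcript, 3 (0.15%) occurred in a transcript of another gene, either Alpi or the pseudogene Akp-ps1. No word of 100 bases in any of the 4 genes did. Expected counts were whole numbers in all 32 values of the 4 genes, and Akp-ps1 had 0 counts in all 8 libraries. Gm29371, an annotated long noncoding RNA that overlaps Alppl2 on the opposite strand, had 0 counts too.

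Alppl2, the embryonic enzyme, had 1392, 1058 and 327 expected counts in the G77S libraries, 2 and 0 counts in the KO libraries and 95, 250 and 795 counts in the WT libraries. Per length and depth this was 47.4, 41.0 and 14.9 TPM (scaled to transcript length and library size) in G77S libraries, 0.05 and 0.00 TPM in KO libraries and 2.67, 9.72 and 14.7 TPM in WT libraries. All 3 G77S libraries lay above all 3 WT libraries on the TPM scale, the lowest G77S library at 14.87 TPM just above the highest WT library at 14.69 TPM. Both KO libraries lay below every other library. On CPM, with library sizes scaled by TMM, the lowest G77S library had 28.4 CPM and the highest WT library 36.8 CPM, so there the groups overlapped. The separation on TPM thus depended on the scale. On log2(TPM + 1) the median of all genes in G77S over WT lay 0.20 above that of the main fit. In such bulk samples, fewer cells of a type and less RNA per cell cannot be told apart.

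Over the pooled counts of its group, Alppl2 had 2 counts in KO and 1140 counts in WT, a depth-adjusted KO to WT ratio of 0.00243 with an exact 95% interval of 0.000294 to 0.00880. The same ratio of G77S to KO was 1227, with an interval of 339 to 10140.0. These intervals cover counting error only, and amplified reads without molecular identifiers are not independent molecules. Both ratios rest on the KO libraries that led to the choice of the gene and carry no test. Over all genes, KO against WT had 11 calls upward (0.0788%) and 6 downward (0.043%), and nothing is read from that beside Alppl2. In 1 KO library, Alppl2 was at 0 counts, where 3 counts would be 0.142 CPM before TMM scaling.

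**Figure D1:**
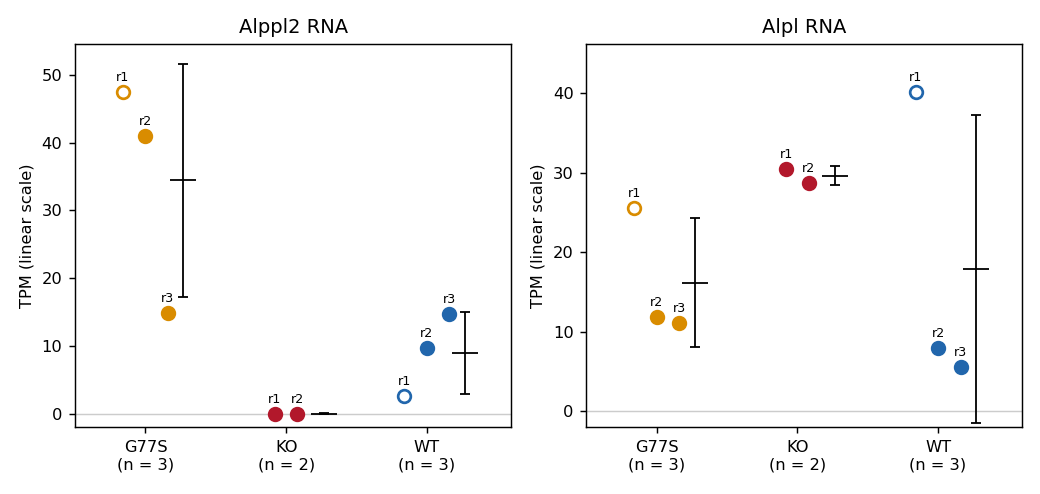
TPM of Alppl2 and Alpl in each library (points) with the mean and SD of each genotype (black), G77S, KO and WT from left to right, and open symbols for the libraries without Y-linked RNA. Alppl2 lay at 14.87 to 47.42 TPM in G77S, 0 to 0.05 TPM in KO and 2.67 to 14.69 TPM in WT, while Alpl overlapped between G77S and WT.

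Alppl2 averaged 34.4 ± 17.2 TPM in G77S libraries and 9.03 ± 6.04 TPM in WT libraries (SD, n = 3 each). The highest library was 3.19 times the lowest within G77S and 5.50 times within WT. The fitted log2 fold change of G77S over WT was 1.56 (SE 0.67), which did not pass the threshold of 0.05 (edgeR quasi-likelihood test, adjusted p = 0.219 over 13953 genes, unadjusted p = 0.0392). In the same comparison 182 genes (1.3%) were called higher and 291 (2.09%) lower. The WT libraries of this comparison are those of the choice of the gene, so the comparison is not independent of it.

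The size of that difference depended on single libraries. Without the first WT library, which had the lowest WT value, it was 1.10, and without the first G77S library it was 1.17 (adjusted p = 0.271 and 0.540, edgeR). In the 6 libraries with Y-linked RNA, a subset picked after the data had been seen, it was 0.70 (SE 0.56, edgeR adjusted p = 0.599). Keeping all low-count genes gave 1.54 and brought it past the threshold (edgeR adjusted p = 0.00319). Over the settings tried, the adjusted p ran from 0.00319 to 0.599, and the direction was upward in each.

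Alpl, the tissue-nonspecific enzyme, had 928, 375 and 302 expected counts in G77S libraries, 1670 and 1917 counts in KO libraries and 1845, 253 and 380 counts in WT libraries. This was 25.6, 11.8 and 11.1 TPM in G77S, 30.5 and 28.7 TPM in KO and 40.1, 7.98 and 5.55 TPM in WT. The first WT library held more Alpl than any other library, and the other WT libraries held less than all others. The KO libraries lay close together and above all G77S libraries, and WT overlapped with both other groups.

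Group means of Alpl were 16.2 ± 8.15 TPM in G77S (SD, n = 3), 29.6 ± 1.22 TPM in KO (SD, n = 2) and 17.9 ± 19.3 TPM in WT (SD, n = 3). The highest WT library was 7.23 times the lowest, against 2.30 times in G77S and 1.06 times in KO. The G77S over WT log2 fold change was -0.32 (SE 0.61, adjusted p = 0.829 by edgeR), and removing the first WT library turned it to 0.87 (adjusted p = 0.282). Its direction also turned on log2(TPM + 1), to 0.26, where the median of all genes shifted up by 0.20.

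In G77S over KO the Alpl log2 fold change was -1.36 (SE 0.67), not past the threshold (edgeR adjusted p = 0.272). In that comparison, 246 genes (1.76%) were called higher and 339 (2.43%) lower, 4.19% in all. In the 6 libraries with Y-linked RNA, a subset picked after the data had been seen, it was -1.98 (SE 0.31) and passed (edgeR adjusted p = 0.0167). It also passed with all low-count genes kept, at -1.39 (edgeR adjusted p = 0.00467). In the Y-linked subset the G77S values were 11.1 to 11.8 TPM, the KO values 28.7 to 30.5 TPM and the WT values 5.55 to 7.98 TPM, with 2 libraries a group and no overlap. On CPM the G77S values there were 25.5 and 26.2 and the WT values 25.1 and 17.6, so G77S and WT nearly met. That subset leaves out the highest Alpl library of G77S (25.6 TPM) and of WT (40.1 TPM). The pass and the lack of overlap are therefore not independent of the choice of libraries. The KO over WT log2 fold change, given as a value with no test, was 1.04 in all libraries and 2.26 in those 6, and it was 2.23 without the first WT library. The G77S over KO value moved instead with the first G77S library, to -1.99 without it, and stayed at -1.36 without the first WT library. The first WT library, with which the KO over WT value moved most, differed from the other WT libraries in Y-linked RNA. It differed also in Xist, the X-inactivation RNA, at 127.5 CPM, against 0.00 and 4.82 CPM. Whether the sex of the embryos or another property of that library bears on Alpl was not tested.

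**Figure D2:**
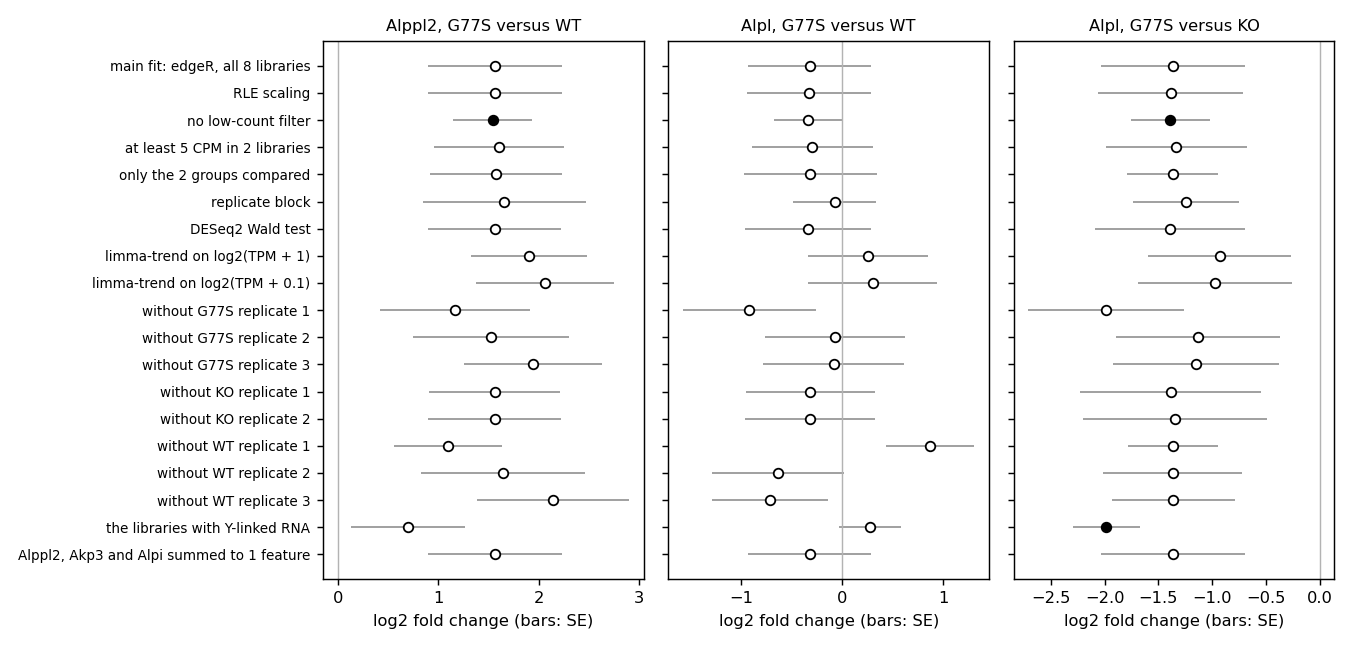
Log2 fold changes with SE under each processing setting, for Alppl2 and Alpl in G77S over WT and for Alpl in G77S over KO; filled points have an adjusted p under 0.05. Alppl2 stayed above 0 in every setting, at 0.70 to 2.14, while Alpl in G77S over WT ran from -0.92 to 0.87.

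Alpi and Akp3, the intestinal enzymes, had 0 counts in all 8 libraries. Depth bounds this: 3 counts would be 0.126 to 0.291 CPM before TMM scaling, depending on the library. Neither gene passed the filter on low counts, and no comparison of them was made. Alppl2 and Alpl were the members that passed.

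With 2 genes expressed, the makeup of the family's RNA turned on Alppl2 and Alpl. Alppl2 made up 65.0%, 77.6% and 57.2% of the summed TPM of the 4 genes in G77S libraries, 0.164% and 0% in KO libraries and 6.24%, 54.9% and 72.6% in WT libraries. It was the larger part in all G77S libraries and in 2 of the 3 WT libraries. In the KO library without Alppl2, which had 0 of 1917 family counts, 3 counts would be 0.156%, a share of counts and not of TPM. The family's summed TPM was 73.0, 52.8 and 26.0 in G77S libraries, 30.5 and 28.7 in KO libraries and 42.8, 17.7 and 20.2 in WT libraries. The sums averaged 50.6 ± 23.6 TPM in G77S (SD, n = 3), 29.6 ± 1.25 TPM in KO (SD, n = 2) and 26.9 ± 13.8 TPM in WT (SD, n = 3), and the ranges of all 3 groups overlapped. The sums of both KO libraries lay inside the range of the WT sums. These sums depend on the TPM scale. On log2(TPM + 1) the median of all genes shifted up by 0.20 in G77S over WT and by 0.24 in G77S over KO. Mean CPM of Alppl2 and Alpl was 65.9 and 38.9 in G77S, 0.06 and 100 in KO and 22.3 and 48.5 in WT.

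**Figure D3:**
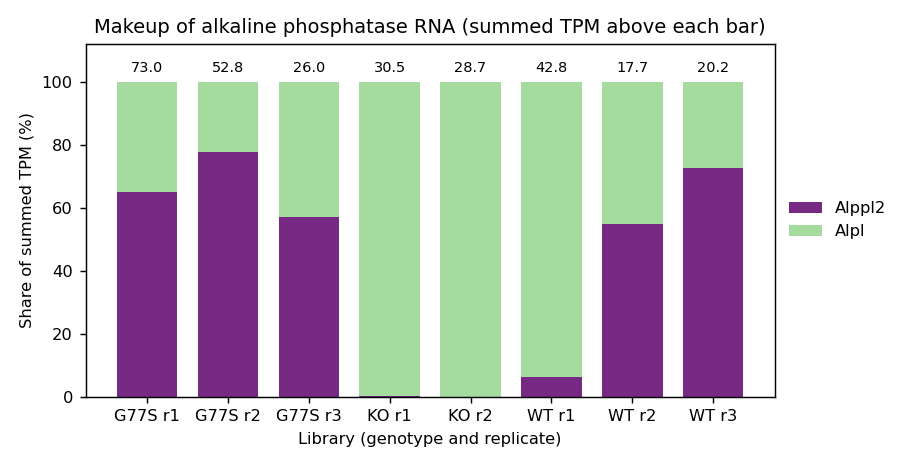
Share of the summed TPM of the alkaline phosphatase genes taken by Alppl2 and by Alpl in each library, with the summed TPM above each bar. Alppl2 was 57.2% to 77.6% in G77S, at most 0.164% in KO and 6.24% to 72.6% in WT.

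The deposited tables also give each gene's mean transcript length, weighted by the abundance of its isoforms. For Alppl2 it was 2069, 2048 and 2079 bases in G77S libraries, 2016 bases in the KO library with reads and 2016, 2092 and 2045 bases in WT libraries. These values lie between the lengths of the full-length isoforms, 2016 and 2092 bases, and above the 644 bases of a retained-intron isoform. For Alpl it was 2472 to 2522 bases in all libraries, where the main isoform has 2522 bases.

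Of the protein-coding genes whose start lies within 100 kb of the chromosome 1 cluster, Eif4e2, a cap-binding protein, was the only 1 of 5 with a mean above 1 CPM in any genotype. It had 290, 265 and 303 CPM in G77S libraries, 447 and 419 CPM in KO libraries and 488, 491 and 455 CPM in WT libraries. All G77S libraries lay below all others, with a log2 fold change of G77S over WT of -0.74 (SE 0.17, edgeR adjusted p = 0.0448). That call was lost without any 1 of the G77S or KO libraries and without the second or the third WT library, where edgeR's adjusted p was 0.0577 to 0.203. It was lost too on log2(TPM + 1), with a replicate block and among the 6 libraries with Y-linked RNA. KO over WT was -0.14 (edgeR adjusted p = 0.827). Near Alpl, Rap1gap reached at most 0.85 CPM. Ece1, endothelin-converting enzyme, had 0.82 to 1.65 CPM in G77S libraries and 0 elsewhere.

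The genes whose levels across the 8 libraries lay nearest to those of Alppl2, in root mean square difference of centred log2(CPM + 1) among 6071 genes, were Gm38100 (0.89), Spic (0.97), an ETS-family transcription factor, and Gm16513 (1.06). For Alpl they were Npl (0.39), a sialic acid lyase, Ftl1 (0.48), the ferritin light chain, and Lamc1 (0.50), a laminin chain. The nearest gene of Alpl had the smaller difference, but the differences are not scaled to a gene's own spread. Alppl2 ranged from 0 to 97.4 CPM over the libraries and Alpl from 17.6 to 103 CPM, so the distances of Alppl2 and Alpl are not comparable. These distances come from 8 libraries and describe likeness of level alone.

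**Figure D4:**
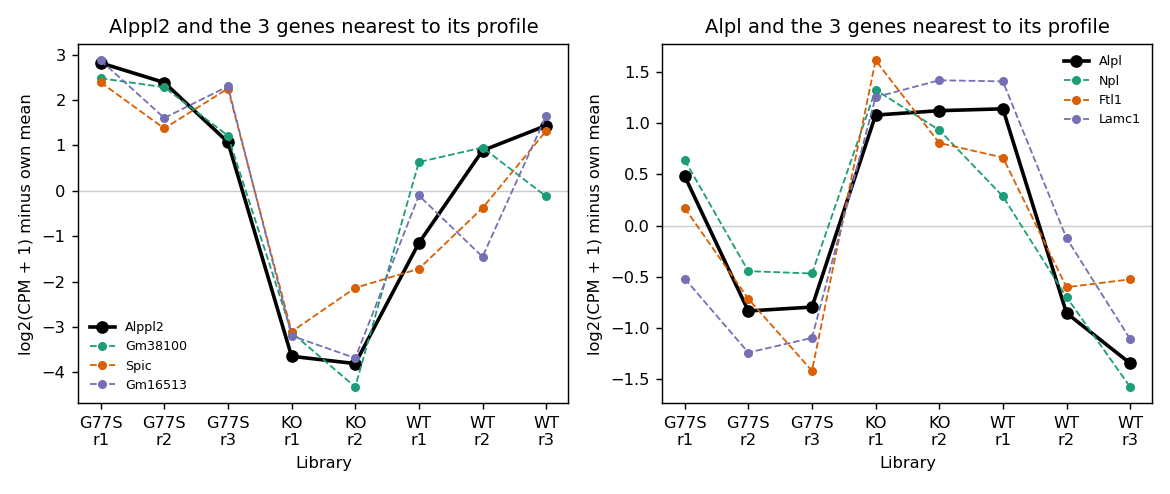
Log2(CPM + 1) minus each gene's own mean over the 8 libraries, for Alppl2 with its 3 nearest genes and Alpl with its 3 nearest genes; lines join the values of a gene and set no order among libraries. The Alppl2 panel drops in both KO libraries, and the Alpl panel is high in both KO libraries and the first WT library.

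Genes that act with alkaline phosphatases were listed in 7 groups of 88 genes, of which 79 passed the filter. In G77S against WT, 1 was called higher and 4 lower, 6.33% of the 79 beside 3.39% of all genes tested. Their median log2 fold change was 0.07 (0.03 over all genes). In KO against WT no gene of the lists was called by edgeR, where 0.122% of all genes were. There 16 of the 79 had an unadjusted p under 0.05, beside 1819 of the 13953 genes tested. DESeq2 called 3 higher and 6 lower, beside 360 higher and 424 lower among all 22958 genes it was given. The KO median was -0.10, beside -0.06 over all genes. In G77S against KO, 2 were called higher and 2 lower, 5.06% of the 79 beside 4.19% of all genes.

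Pyrophosphate, which alkaline phosphatase breaks down, is made outside cells by Enpp1. This gene had 3.08, 7.28 and 10.5 CPM in G77S libraries, 120 and 124 CPM in KO libraries and 80.2, 87.1 and 140 CPM in WT libraries. The groups G77S and WT were far apart, with a log2 fold change of -3.88 (SE 0.44, edgeR adjusted p = 0.00332), and the call held in all 18 alternative settings. The setting that summed the chromosome 1 genes is among these 18 and could not alter a call. KO over WT was 0.25 (edgeR adjusted p = 0.880). No other of the 9 tested genes of pyrophosphate and phosphate handling was called in either comparison with WT, and their median was -0.47 in G77S over WT and -0.32 in KO over WT. In G77S over KO the calls were Enpp1, at -4.14 (SE 0.46, edgeR adjusted p = 0.00244), and Slc34a2, a sodium-phosphate cotransporter, at 1.98 (SE 0.46, edgeR adjusted p = 0.0385). Enpp1 kept that call in all 18 alternatives, and Slc34a2 lost it without any 1 of the G77S or KO libraries (edgeR adjusted p 0.0903 to 0.155), with a replicate block and among the 6 libraries with Y-linked RNA.

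Among 8 tested genes of other phosphatases acting on monoesters, Acp5, the tartrate-resistant acid phosphatase, was lower in G77S over WT. It had 40.9, 34.5 and 34.1 CPM in G77S libraries, 27.6 and 26.4 CPM in KO libraries and 55.0, 111 and 153 CPM in WT libraries, with a log2 fold change of -1.54 (SE 0.35, edgeR adjusted p = 0.0419). The call was lost without any 1 of the G77S or KO libraries and without the second or the third WT library, with an edgeR adjusted p of 0.0567 to 0.168, and with a replicate block. Acp5 was lower in KO over WT too, at -1.975 (SE 0.411), not past the threshold (edgeR adjusted p = 0.104). None of the 4 vitamin B6 genes was called in any of the 3 comparisons, and Pdxk, the pyridoxal kinase, averaged 86.6 CPM in G77S, 43.5 CPM in KO and 78.3 CPM in WT. Plpbp, which binds pyridoxal phosphate, averaged 76.2 CPM in G77S, 56.1 CPM in KO and 46.8 CPM in WT.

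The GPI anchor that holds the enzymes is built in the endoplasmic reticulum. Of 18 synthesis genes tested, Pigx, a subunit of the first mannosyltransferase, was lower, at 115, 105 and 114 CPM in G77S libraries, against 252 and 250 CPM in KO libraries and 266, 233 and 182 CPM in WT libraries. Its log2 fold change of G77S over WT was -1.02 (SE 0.21, edgeR adjusted p = 0.0254), a call lost without any 1 of the G77S libraries or the second WT library (adjusted p 0.0737 to 0.140), among the 6 libraries with Y-linked RNA and on the TPM scales. The other 17 were not called in G77S or KO against WT, and the list median in G77S over WT was -0.16. In G77S over KO the calls were Pigx, at -1.17 (SE 0.22, edgeR adjusted p = 0.0191), and Pigq, a subunit of the enzyme of the first step, at 3.12 (SE 0.75, edgeR adjusted p = 0.0441). Pigx lost that call without any 1 of the G77S or KO libraries (edgeR adjusted p 0.0553 to 0.0905) and on the TPM scales. Pigq lost it without any 1 of the G77S libraries, the first KO library or the second or the third WT library (edgeR adjusted p 0.0526 to 0.127), with a replicate block and among the 6 libraries with Y-linked RNA. None of 10 genes of GPI attachment and remodelling was called in any of the 3 comparisons. Tmed10 and Tmed2, cargo receptors that carry anchored proteins out of the reticulum, had log2 fold changes of G77S over WT of -0.26 and -0.15.

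Zinc reaches alkaline phosphatases through the transporters Slc30a5, Slc30a6 and Slc30a7. None of the 17 tested zinc genes was called in any of the 3 comparisons, and these 3 had log2 fold changes of G77S over WT of -0.30, 0.16 and -0.12. The metallothioneins Mt1 and Mt2, which store zinc, had 0.07 and 0.53.

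Other proteins with the same anchor included the calls in opposite directions of Ly6a and Prnd among 15 tested genes. Ly6a, the surface antigen Sca-1, had 253, 260 and 83.8 CPM in G77S libraries, 48.1 and 93.6 CPM in KO libraries and 14.3, 3.28 and 26.5 CPM in WT libraries. Its log2 fold change of G77S over WT was 3.75 (SE 0.69, edgeR adjusted p = 0.0170), lost without the first G77S library (0.0642), without the second (0.0697) and among the 6 libraries with Y-linked RNA (0.0931). Prnd, the prion-like protein doppel, had 0.210, 0.612 and 1.301 CPM in G77S libraries, 5.08 and 0.742 CPM in KO libraries and 46.6, 15.9 and 6.76 CPM in WT libraries. It had a log2 fold change of -5.04 (SE 1.02, edgeR adjusted p = 0.0271), lost without any 1 of the G77S libraries and without the first or the second WT library (0.0542 to 0.128), and among the 6 libraries with Y-linked RNA (0.142). The list median was 0.55 in G77S over WT and 1.11 in KO over WT, where none was called and 7 of the 15 had an unadjusted p under 0.05, beside 1819 of the 13953 genes tested.

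Markers of the blastocyst's lineages give the setting of these values, and their calls stand beside 1.3% of all genes higher and 2.09% lower in G77S against WT, and 0.0788% higher and 0.043% lower in KO against WT. The summed TPM of 12 trophectoderm markers was 10124 to 13167 in G77S, 29234 to 33660 in KO and 30171 to 39906 in WT, and 6 of them were called lower in G77S against WT. The 17 epiblast markers summed to 11344 to 16236 TPM in G77S, 21412 to 22468 TPM in KO and 19490 to 27475 TPM in WT, largely from Dppa5a, with 4 called higher in G77S and 1, Utf1, called higher in KO, each against WT. The calls in G77S were Pou5f1, Utf1, Dppa2 and Dppa4, while some other members had fold changes below 0. The median log2 fold change of the 17 was 1.416 in G77S over WT and 0.679 in KO over WT (0.03 and -0.06 over all genes). By edgeR, 11 and 9 of the 17 had an unadjusted p under 0.05, beside 2797 and 1819 of the 13953 genes tested. In KO over WT, Pou5f1 and Nanog had fold changes below 0 and so ran against the median of their list. Pou5f1, the pluripotency factor Oct4, averaged 32.6 TPM in G77S, 2.04 TPM in KO and 4.61 TPM in WT. Nanog, another pluripotency factor, averaged 61.5 ± 27.6 TPM in G77S (SD, n = 3), 14.9 ± 7.85 TPM in KO (SD, n = 2) and 110 ± 28.9 TPM in WT (SD, n = 3), and both KO libraries lay below all others. Its log2 fold change was -1.13 (SE 0.36) in G77S over WT and -2.69 (SE 0.44) in KO over WT, neither past the threshold (edgeR adjusted p = 0.107 and 0.0530). Both passed by DESeq2 (adjusted p = 0.0357 and 9.85e-07) and with all low-count genes kept, and KO over WT also passed among genes with at least 5 CPM in 2 libraries and on the TPM scales. Dppa5a averaged 12470.0 TPM in G77S and 22750.0 TPM in WT (edgeR adjusted p = 0.0594). Sox2 was at 0.21 TPM in G77S, 0.32 TPM in KO and listed at 0 in WT. The 15 primitive endoderm markers summed to 316 to 602 TPM in G77S, 480 to 769 TPM in KO and 392 to 552 TPM in WT, with 2 called higher in G77S against WT and 2, Aqp8 and Srgn, called higher in KO against WT. Over the 13 of them tested, the median log2 fold change was 1.17 in G77S over WT and 5.34 in KO over WT (0.03 and -0.06 over all genes). Of these 13, 7 and 10 had an unadjusted p under 0.05 by edgeR, beside 2797 and 1819 of the 13953 genes tested. Lamc1, one of the genes nearest to Alpl in level, is in this list. Cdx2, the trophectoderm factor, averaged 5.22 TPM in G77S, 1.60 TPM in KO and 3.30 TPM in WT. Of 11 cumulus and granulosa cell markers, 8 were at 0 counts in all libraries, and all 11 summed to 0.05 to 2.49 TPM. Of 6 blood cell markers, the defining Alas2 was at 0, and the 6 summed to 0.31 to 5.96 TPM. The part of these markers in the levels of Alppl2 and Alpl was not tested.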

How the data were processed

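RNA was measured in 8 libraries by full-length amplification with a single-cell kit and a transposase-based library. RSEM 1.3.1, STAR 2.6.1c and Trim Galore 0.4.5 are among the tools listed by the submitters' processing notes, which give them no role or order. The deposited tables give expected counts, TPM, FPKM and transcript lengths per gene. The deposited FPKM was not used. Genes were named from the GENCODE annotation of GRCm38 (99.4% of identifiers matched).

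Expected counts were rounded to whole numbers. Library sizes were scaled by TMM, low-count genes were removed with filterByExpr, and 13953 genes were tested with edgeR 4.0.16 in R 4.3.3 by the quasi-likelihood test in 1 fit over all 8 libraries, with Benjamini-Hochberg adjustment over all genes. The threshold was an adjusted p of 0.05. TPM, as deposited, set levels within and between genes, and CPM is on TMM-scaled libraries. The fit was tested on simulated data. The members and gene lists were chosen with earlier results of these data known. Named genes were the members, Isca2, every pathway gene called in G77S or KO against WT (otherwise the 2 most abundant of a list), the nearest genes in level and the neighbours within 100 kb. Slc30a5, Slc30a6, Slc30a7, Slc34a2, Pigq and the single lineage markers fall outside that rule and were chosen after their values were seen. The lists were chosen by function. Alternatives used DESeq2 1.42.0, limma 3.58.1 on log2(TPM + 1), other filters, a replicate block, single libraries left out and the libraries with Y-linked RNA. Promoter windows came from RefSeq, and coding sequences were aligned with Biopython 1.88 (match 2, mismatch -1, gap opening -5). Depth was 10323965 to 23842619 expected counts, and a gene with few counts has a wide counting error.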

Additional observations from a re-analysis of the deposited data

How the results depend on the processing

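The Alppl2 values held their direction in all settings for G77S over WT, and leaving out 1 library gave 1.10 to 2.14 (adjusted p 0.172 to 0.540). Keeping all low-count genes gave 1.54 (adjusted p = 0.00319). Alpl in G77S over WT turned to 0.26 on log2(TPM + 1), 0.30 on log2(TPM + 0.1), 0.28 in the 6 libraries with Y-linked RNA, a subset chosen after seeing the data, and 0.87 without the first WT library; single libraries left out gave -0.92 to 0.87. Alpl in G77S over KO passed with all low-count genes (-1.39) and in the Y-linked subset (-1.98), and single libraries left out gave -1.99 to -1.13. Alppl2 in KO over WT was -3.06 on log2(TPM + 1), -5.91 on log2(TPM + 0.1) and fitted at -11.44 without the first KO library, where the KO library left has 0 counts and the fitted value depends on the prior count and is no bound. With single libraries left out, the fitted values ran from that one to -7.47. Alpl in KO over WT was 2.26 in the Y-linked subset, and 0.65 to 2.23 with single libraries left out. Where leaving a library out left KO with 1 library, it was assumed to vary like the other groups. The cause of these shifts was not tested.

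Counts of genes called moved with the filter and the tool. For G77S over WT, 182 higher and 291 lower became 598 and 738 with all low-count genes, 325 higher with at least 5 CPM in 2 libraries, 326 higher with those groups alone, 793 and 880 by DESeq2, 1178 and 1030 higher on log2(TPM + 1) and log2(TPM + 0.1), and 101 higher in the Y-linked subset; single libraries left out gave 31 to 263 and 51 to 375. For KO over WT, 11 higher and 6 lower became 285 and 262 with all low-count genes, 34 and 26 with the stricter filter, 3 lower with those groups alone, 4 higher with a replicate block, 360 and 424 by DESeq2, 57 and 38 on log2(TPM + 1), 48 and 38 on log2(TPM + 0.1), and 21 and 11 in the Y-linked subset; single libraries left out gave 0 to 29 and 0 to 15. For G77S over KO, 246 higher and 339 lower became 619 and 792 with all low-count genes, 391 higher with the stricter filter, 489 and 520 with those groups alone, 945 and 897 by DESeq2, 1543 and 1469 higher on the TPM scales, and 153 higher in the Y-linked subset; single libraries left out gave 57 to 420 and 91 to 529. On log2(TPM + 1) and log2(TPM + 0.1), 80.4% and 78.8% of G77S over WT calls were higher, against 38.5% on counts, and 83.5% and 84.2% of G77S over KO calls against 42.1%, with the median of all genes shifted by 0.20 and 0.37 and by 0.24 and 0.49; in KO over WT the shift was -0.12 on log2(TPM + 0.1).

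The pathway genes called higher in G77S over WT were 1, and 6 with all low-count genes, 2 with the stricter filter, 2 with those groups alone, 2 with a replicate block, 5 by DESeq2, 8 on both TPM scales and 0 in the Y-linked subset, with 0 to 2 when single libraries were left out. The 4 called lower became 8 with all low-count genes, 7 by DESeq2 and 2 in the Y-linked subset, with 1 to 4 left out singly. In KO over WT, none higher became 5 with all low-count genes, 1 with the stricter filter, 3 by DESeq2 and 1 on each TPM scale, with 0 to 1 left out singly; none lower became 5, 6 by DESeq2, 1 on each TPM scale and 1 in the Y-linked subset, with 0 to 1. Deviations of same-numbered libraries from their group means correlated at r of -0.04 to 0.10. With 2 or 3 libraries a group these deviations are tied to each other, so whether the numbers pair the libraries cannot be told. The replicate block gave Alppl2 1.66 and Alpl -0.07 in G77S over WT. Summing the chromosome 1 genes changed no value, an outcome fixed in advance because Alpi and Akp3 had 0 counts in all 8 libraries. Depth, the 2 KO libraries, the fragment lengths that set all G77S libraries apart and the unknown number of embryos a library limit all comparisons.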
